A study of Mus musculus with 6 samples.

Results

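The clustered protocadherins were followed in RNA-seq of neural progenitor cells (NPCs) from *Armc5* KO and WT mouse fetuses. Members were the loci whose gene name holds a symbol starting with *Pcdha*, *Pcdhb* or *Pcdhg*, which gave 19 loci of 59699 in the deposited count table, or of 53103 that name a gene. Together the 19 loci name 57 symbols, of which 13 are *Pcdha*, 22 *Pcdhb* and 22 *Pcdhg*. The 3 KO libraries carry the genotype Armc5(-/-) and the 3 WT libraries the genotype WT, and the strain of all 6 is labelled 129 sv X CD1, while the study's methods give a CD1 x C57BL/6 F1 background. Cells came from ganglionic eminences of e13.5 fetuses, formed neurospheres in medium holding 20 ng/ml epidermal growth factor, and were used at the second passage. The sources name no cell-type-specific driver of the deletion of ARMC5, the substrate adaptor of a ubiquitin ligase of RNA polymerase II. The labels do not say that each library came from a separate fetus, so p values measure the spread between these libraries.

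Clustered protocadherins are cadherin-like cell surface proteins, made from neighboring *Pcdha*, *Pcdhb* and *Pcdhg* gene clusters. Each neuron expresses its own small set of them, chosen promoter by promoter, and like isoforms bind each other between cells, which lets a neuron tell its own branches from those of others. A *Pcdha* or *Pcdhg* transcript joins a variable exon, which encodes the extracellular and transmembrane part, to constant exons shared by the whole cluster, whereas a *Pcdhb* transcript comes from a single exon and has no constant part. CTCF and cohesin join the promoters to distant enhancers, and DNA methylation and SMCHD1 keep promoters silent.

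The annotation sets which members can be read singly. A single locus holds all 13 *Pcdha* and all 22 *Pcdhg* symbols (12 *Pcdhga*, 7 *Pcdhgb* and 3 *Pcdhgc*), together with 5 predicted genes. It lies on the plus strand of chromosome 18 from 36930184 to 37841873 (GRCm38), spans 911690 bases and has 112596 exonic bases in 79 transcripts, of which 72 are Ensembl transcripts and 7 were assembled from reads. In GENCODE M21, on the same build, 3 exon starts are shared by all 14 *Pcdha* gene identifiers and 3 by all 22 *Pcdhg* identifiers. Counts of a single *Pcdha* or *Pcdhg* gene therefore cannot be taken from this table, nor can the *Pcdha* and *Pcdhg* clusters be told apart.

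All *Pcdhb* loci lie inside the span of that merged locus. A second merged locus, from 37477814 to 37524479, holds *Pcdhb16*, *Pcdhb18*, *Pcdhb19*, *Pcdhb21* and *Pcdhb22*, and its 28263 exonic bases equal the union of these 5 genes in GENCODE M21. The other 17 *Pcdhb* genes each stand alone, and 17 of 17 have the start, end and strand of their GENCODE gene. *Pcdhb17* and *Pcdhb20* stand alone although they lie inside the span of the merged *Pcdhb* locus. All 22 *Pcdhb* genes have a transcript of 1 exon.

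The *Pcdhb* genes are close relatives, so each transcript was cut into overlapping windows of 100 bases and each window was looked for, unchanged, in the transcripts of all other genes. For *Pcdhb12* 62.3% of the windows were found elsewhere, mainly in *Gm37446*, an annotated antisense transcript over the same bases, which itself had between 0 and 11 counts per library. *Pcdhb21* and *Pcdhb22* shared 7.73% and 5.47% of their windows with each other, and both belong to the merged *Pcdhb* locus. The highest share among the others was 2.31%, for *Pcdhb6*, so that nearly all bases of the lone *Pcdhb* genes are unique over 100 bases. No source used here says if reads were counted by strand, so *Pcdhb12* is uncertain.

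Each library had between 52995791 and 85170379 counts at named loci. *Armc5* itself was between 0.73 and 1.64 CPM (counts scaled to a library's total, with TMM factors) in KO and between 26.2 and 31.2 CPM in WT libraries, and KO against WT gave log2 -4.68 ± 0.36 (standard error; Benjamini-Hochberg adjusted p = 0.0864, edgeR quasi-likelihood). The library KO NPC 3 stood apart from the rest. It had the lowest total, the highest share of counts at loci without a gene name (4.89%, against 1.31% to 1.72% in the other 5 libraries), and a summed level of 6 astrocyte markers 3.69 times the mean of the other 5. KO against WT, the merged *Pcdha* and *Pcdhg* locus and medians of the *Pcdhb* loci and gene lists are given below with and without it. Single *Pcdhb* loci and listed genes are given so in part. Over all 19073 genes tested, KO against WT, edgeR's quasi-likelihood test called 0 (0%) at the adjusted threshold of 0.05, and 308 (1.61%) had an unadjusted p under 0.05.

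The merged *Pcdha* and *Pcdhg* locus did not differ between genotypes beyond the spread between libraries. In KO NPC 1, 2 and 3 its level was 1292, 1392 and 1470 CPM, and in WT NPC 1, 2 and 3 it was 1439, 943 and 1493 CPM. WT NPC 2 was the lowest library, and the KO values lay inside the range of the WT values. The KO mean was 1385 ± 88.9 CPM and the WT mean 1291 ± 303 CPM (SD, n = 3 each). Its log2 fold change of 0.10 ± 0.22 (standard error) did not pass edgeR's quasi-likelihood test (adjusted p = 0.983), and was 0.06 without KO NPC 3. Its sign rested on a single library and on the scaling: it was -0.053 without WT NPC 2 and -0.22 when libraries were scaled by *Rn7sk*, the small nuclear RNA that the study used as its reference, a scaling that moved the median of all genes from -0.01 to -0.26.

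The *Pcdhb* genes were a smaller output of the same stretch of chromosome. Their 18 loci together had 141, 179 and 450.4 CPM (KO NPC 1, 2 and 3) and 194, 158 and 117 CPM (WT NPC 1, 2 and 3). KO NPC 3 was far above every other library, whereas KO NPC 1 and 2 lay within the WT range. The KO mean was 257 ± 169 CPM and the WT mean 157 ± 38.5 CPM (SD, n = 3 each), a ratio of 1.64, which became 1.02 without KO NPC 3. For every 1000 CPM at the merged *Pcdha* and *Pcdhg* locus, the *Pcdhb* loci of KO NPC 3 had 306 CPM, while those of the other 5 libraries had 78.6 to 168 CPM.

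**Figure D1:**
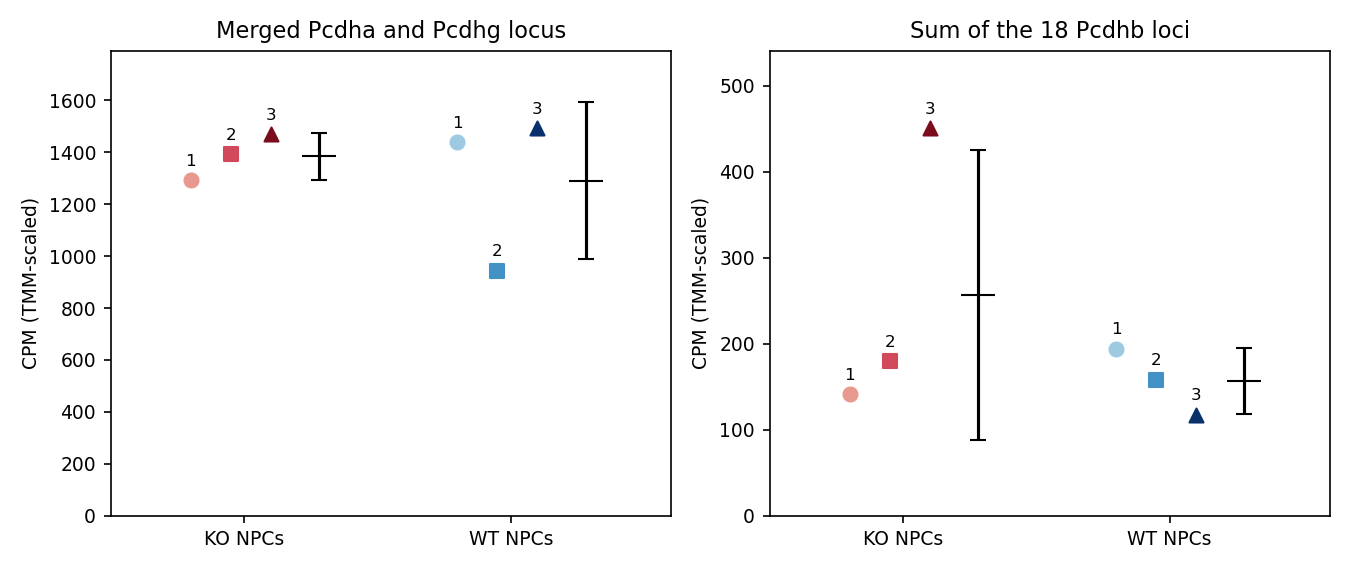
Summed level in CPM (TMM-scaled) of the merged Pcdha and Pcdhg locus (left) and of the 18 Pcdhb loci (right), with 1 point per library, its replicate number above it, and the mean ± SD of each genotype beside the points. On the left the KO libraries sit between 1292 and 1470 CPM, inside the WT range, and on the right KO NPC 3 sits at 450.4 CPM, above the other 5 libraries at 117 to 194 CPM.

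The *Pcdhb* repertoire was uneven in these NPCs. *Pcdhb1* was nearly silent, with 3, 11 and 14 counts in KO NPC 1, 2 and 3 and 3, 6 and 0 counts in WT NPC 1, 2 and 3, and it did not pass the filter on low counts. The 0 counts in WT NPC 3 allow a level of up to 0.0438 CPM (3 counts). The other 17 loci passed. Per kb of exon, a scale that corrects for the length of the gene, the WT mean was highest for *Pcdhb20* (2.79 ± 1.73 CPM per kb, SD, n = 3) and for the merged *Pcdhb* locus (2.68 ± 0.62 CPM per kb), followed by *Pcdhb17* (2.34 ± 0.33 CPM per kb) and *Pcdhb11* (1.87 ± 0.53 CPM per kb). These 4 neighbors in the order differ by less than the SD of one of each adjoining pair. The lowest of the 17 was *Pcdhb13* (0.33 ± 0.02 CPM per kb), below *Pcdhb9* (0.56 ± 0.28 CPM per kb) and *Pcdhb12* (0.58 ± 0.02 CPM per kb). The merged *Pcdha* and *Pcdhg* locus was at 11.5 ± 2.69 CPM per kb, on a length that counts every alternative variable exon and so understates the level of a transcript.

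Loci differed in how far their share of the *Pcdhb* counts varied. The merged *Pcdhb* locus held between 45.4% and 51.6% of the *Pcdhb* counts in each of the 6 libraries. *Pcdhb17* held between 6.46% and 8.15%, and *Pcdhb11* between 4.27% and 5.74%. The share of *Pcdhb20* was 2.68% in WT NPC 3 and between 7.31% and 9.62% in the other 5 libraries, the widest range among the loci that passed the filter. *Pcdhb9* took the highest share in WT NPC 3 (2.30%) and the next highest in KO NPC 3 (1.70%), against 0.68% to 0.86% elsewhere.

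**Figure D2:**
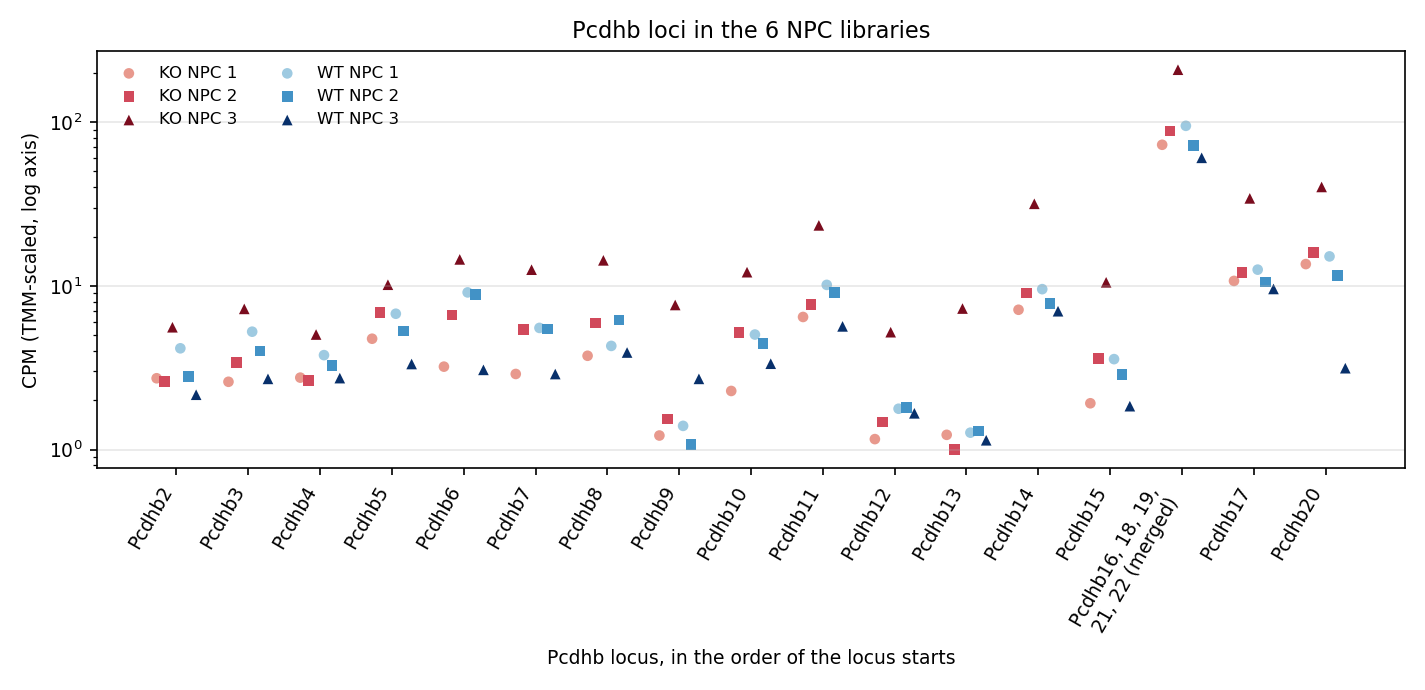
Level of each of the 17 Pcdhb loci that passed the filter, in CPM (TMM-scaled, log axis), in the order of the locus starts along the chromosome, with 1 symbol per library. KO NPC 3 is the highest library at 17 of 17 loci, and WT NPC 3 is the lowest at 10, most clearly at Pcdhb20.

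KO against WT, all 17 tested *Pcdhb* loci had a log2 fold change above 0, and none passed the test. Over all genes tested, 48.4% had a log2 fold change above 0. The median over the *Pcdhb* loci was 0.61, against -0.01 over all genes tested, with a range from 0.09 at *Pcdhb4* to 1.35 at *Pcdhb13*. EdgeR's quasi-likelihood test called 0 of the 17 loci, 0 had an unadjusted p under 0.05, and the smallest unadjusted p was 0.116 with an adjusted p of 0.983. DESeq2 called 0 of the 17 loci and 0.186% of all genes. The likelihood ratio test called 0 of the 17 and 0.0891% of all genes, or 0.199% of all genes once replicate numbers entered as a block. Standard errors of the *Pcdhb* log2 fold changes were between 0.36 and 0.81, so that changes of the size measured could not be told from the spread between libraries. At 0 of the 17 loci was every KO library above every WT library, a pattern that 2.74% of all genes tested had, and at 0 was every KO library below every WT library (3.28% of all genes tested).

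Without KO NPC 3 the lean upward was lost. The median of the *Pcdhb* loci was then -0.16, with 5 loci above 0 and 12 below 0, where 47.8% of all genes tested were above 0. The log2 fold change of *Pcdhb13* went from 1.35 (standard error 0.81) to -0.15 (standard error 0.25), that of *Pcdhb9* from 1.00 (standard error 0.80) to -0.32 (standard error 0.45), and that of *Pcdhb12* from 0.58 (standard error 0.62) to -0.41 (standard error 0.24). The merged *Pcdhb* locus stayed above 0 at 0.09 (standard error 0.22), from 0.70 (standard error 0.43). *Pcdhb20* then had the highest value, 0.56 (standard error 0.63), from 1.22 (standard error 0.67). It was at 0.79 without WT NPC 3, its lowest library, and at 0.14 (standard error 0.21) without both libraries numbered 3.

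**Figure D3:**
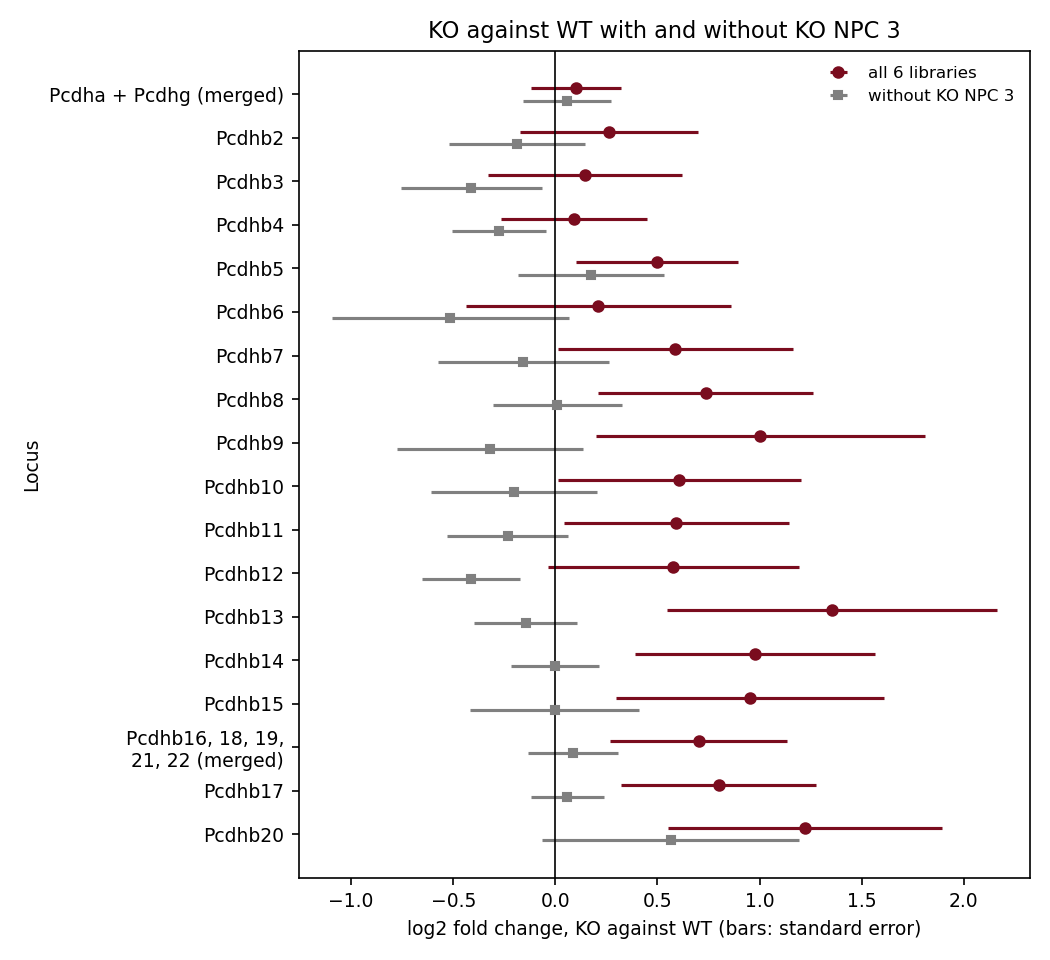
Log2 fold change, KO against WT, of the merged Pcdha and Pcdhg locus and of the 17 tested Pcdhb loci, from all 6 libraries (circles) and without KO NPC 3 (squares), with bars of 1 standard error. All 17 Pcdhb circles lie right of 0, up to 1.35, while 12 of the 17 squares lie left of it, and the merged Pcdha and Pcdhg locus is near 0 in both (0.10 and 0.06).

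KO NPC 3 was the highest of the 6 libraries at 17 of 17 *Pcdhb* loci, where it was the highest library for 34.9% of all genes tested. This comparison of 1 library with the rest was chosen after its values were seen and has no test. The level in KO NPC 3 was between 1.66 times (*Pcdhb4*) and 6.11 times (*Pcdhb13*) the mean of the other 5 libraries, with a median of 2.99 times, against 0.98 times over all genes tested. It was more than 2 times that mean at 14 of the 17 loci and for 18.8% of all genes tested. The merged *Pcdha* and *Pcdhg* locus in KO NPC 3 was 1.12 times the mean of the other 5. The summed *Pcdhb* level of KO NPC 3 over the mean of the other 5 was 2.85 times on the TMM scale, 3.25 times as a share of all counts and 2.57 times relative to *Rn7sk*.

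Single loci show the size of that library's difference. *Pcdhb13* was at 1.23, 1.00 and 7.26 CPM in KO NPC 1, 2 and 3 and at 1.27, 1.30 and 1.14 CPM in WT NPC 1, 2 and 3. The 5 libraries other than KO NPC 3 lay between 1.00 and 1.30 CPM. *Pcdhb14* was at 7.14, 9.05 and 31.7 CPM in the KO libraries and at 9.54, 7.77 and 6.99 CPM in the WT libraries. *Pcdhb9* was at 1.22, 1.54 and 7.63 CPM in the KO libraries and at 1.40, 1.08 and 2.70 CPM in the WT libraries, and is a locus at which WT NPC 3 is second to KO NPC 3. The merged *Pcdhb* locus was at 72.7, 88.3 and 209 CPM in the KO libraries and at 94.8, 71.8 and 60.5 CPM in the WT libraries, so that KO NPC 1 and 2 lay within the WT range. *Pcdhb20* was at 13.6, 15.9 and 40.1 CPM in the KO libraries and at 15.1, 11.6 and 3.14 CPM in the WT libraries. Here both libraries numbered 3 stood apart, in opposite directions.

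Other loci differed in how the remaining libraries lay. *Pcdhb6* had 3.21, 6.64 and 14.5 CPM in KO and 9.11, 8.83 and 3.07 CPM in WT libraries, so that KO NPC 1 and WT NPC 3 were both low. *Pcdhb12*, the locus with the antisense partner, had 1.16, 1.47 and 5.21 CPM in KO and 1.78, 1.80 and 1.66 CPM in WT libraries, with a WT SD of 0.0731 CPM beside 0.0851 CPM at *Pcdhb13*. *Pcdhb17*, which stands alone inside the span of the merged *Pcdhb* locus, had 10.71, 12.01 and 34.18 CPM in KO and 12.55, 10.56 and 9.56 CPM in WT libraries, which is the order of the 6 libraries at the merged locus too. At *Pcdhb2*, *Pcdhb3*, *Pcdhb4* and *Pcdhb5* the next highest library was never more than 6.84 CPM, and KO NPC 3 had 5.58, 7.23, 5.04 and 10.2 CPM. The remaining 5 lone loci, *Pcdhb7*, *Pcdhb8*, *Pcdhb10*, *Pcdhb11* and *Pcdhb15*, had from 10.5 to 23.4 CPM in KO NPC 3 and from 1.84 to 10.1 CPM in the other 5 libraries.

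Along the chromosome the excess in KO NPC 3 was larger toward the *Pcdhg* side. At the 7 loci from *Pcdhb2* to *Pcdhb8* the ratio of KO NPC 3 to the mean of the other 5 libraries was between 1.66 and 2.97, with a median of 2.01. At the 10 loci from *Pcdhb9* to *Pcdhb20*, the merged locus among them, it was between 2.69 and 6.11, with a median of 3.35. Spearman's rho of the ratio with the order of the loci was 0.71 over the 17 loci, which share their libraries and are not independent. For the log2 fold change, KO against WT, the same rank correlation with the order was 0.78 over all 6 libraries and 0.52 without KO NPC 3. The division of the cluster was chosen after the values were seen.

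The libraries share replicate numbers, and the direction of the *Pcdhb* loci differed between numbers. For number 1, KO NPC 1 was below WT NPC 1 at 17 of 17 loci, with a median ratio of 0.70. For number 2, KO NPC 2 was above WT NPC 2 at 8 loci and below it at 9, with a median ratio of 1.00. For number 3, KO NPC 3 was above WT NPC 3 at 17 of 17 loci, with a median ratio of 3.62 and a range from 1.85 to 12.8, the highest at *Pcdhb20*. Over all genes tested the median ratios were 1.00, 1.00 and 0.97 for numbers 1, 2 and 3. For the merged *Pcdha* and *Pcdhg* locus the ratios were 0.90, 1.48 and 0.98.

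Some markers of other cell types and states moved with the *Pcdhb* genes in KO NPC 3. All 10 progenitor markers and all 11 neuron markers were detected and tested, *Sox2* and *Elavl3* as parts of loci merged with neighboring genes, so that the cultures held progenitor transcripts as labelled beside those of neurons and glia. The summed level of the 10 progenitor markers was 4242 to 4908 CPM outside KO NPC 3 and 3229 CPM in it. Its members went both ways: *Nes* and *Hes1* in KO NPC 3 were each 0.18 times the mean of the other 5 libraries, while *Sox2* was 1.42 times and *Pax6* 1.22 times that mean and both were highest there. The 6 astrocyte markers summed to 1751 CPM in KO NPC 3, so that the KO range was 370.5 to 1751 CPM and the WT range 320.1 to 608 CPM. *Aqp4* alone made up 1041 CPM of the sum in KO NPC 3. KO NPC 3 was the highest library for 4 of the 5 astrocyte markers tested. *Aldh1l1* there was 0.82 times and *Aldoc* 1.39 times the mean of the other 5 libraries. *Gfap*, the intermediate filament of mature astrocytes, had 276 CPM in KO NPC 3 and 47.9 CPM in WT NPC 3, but no more than 1.54 CPM in the other 4.

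The 10 oligodendrocyte lineage markers summed to 2626 to 3767 CPM outside KO NPC 3 and to 4240 CPM in it, and *Mog* was at 0 in KO NPC 1 and WT NPC 1. KO NPC 3 was the highest library for 5 of the 9 tested, but the lowest for *Olig1*, *Olig2* and *Cspg4*. The 11 neuron markers summed to 864 to 1519 CPM outside KO NPC 3 and to 1558 CPM in it. KO NPC 3 was the highest library for 6 of these 11, and *Map2* alone had 908 CPM there. Against the mean of the other 5 libraries, KO NPC 3 was 1.03 times at *Map2*, 0.76 times at *Elavl4* and 0.62 times at *Stmn2*. The highest ratio, 5.45 times, was at *Gad1*, the enzyme that makes GABA. *Gad1* had 66.4 CPM in KO NPC 3 and 39.2 CPM in WT NPC 3, but no more than 6.58 CPM in the other 4. Both libraries numbered 3 were thus high for *Gfap* and *Gad1*, while for the summed *Pcdhb* level KO NPC 3 was the highest library and WT NPC 3 the lowest. The 5 endothelial and mural markers summed to 77.1 CPM in KO NPC 3, of which *Pdgfrb*, a receptor of mural cells, made up 58.5 CPM, and to between 3.79 and 7.32 CPM in the others. The 5 microglia markers summed to at most 1.38 CPM, with *Aif1* at 0 in every library but KO NPC 3, and the 5 fibroblast and meninges markers to at most 7.46 CPM in any library. The part of these differences in the *Pcdhb* levels was not tested, and in such bulk samples more cells of a type and more RNA per cell cannot be told apart.

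**Figure D4:**
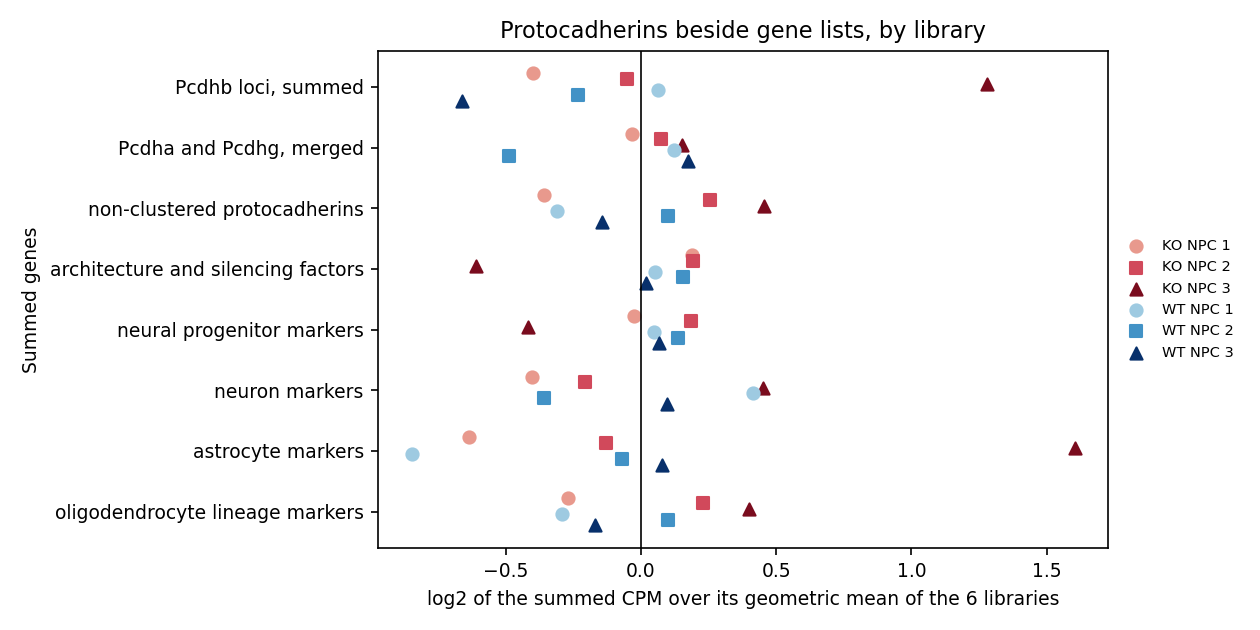
Summed CPM of the Pcdhb loci, the merged Pcdha and Pcdhg locus and 6 gene lists in each library, as log2 over the geometric mean of the 6 libraries, with 1 symbol per library. KO NPC 3 is at the right end for the Pcdhb loci and the astrocyte markers (450.4 and 1751 CPM). By less, it is also furthest right for the non-clustered protocadherins, neuron markers and oligodendrocyte lineage markers (1155, 1558 and 4240 CPM). It is at the left end for the architecture and silencing factors and the progenitor markers (1908 and 3229 CPM).

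None of the factors that build and silence the clusters passed the test. All 16 listed genes were tested, 0 passed in either direction by edgeR's quasi-likelihood test (0 at an unadjusted p under 0.05), and the median log2 fold change was -0.05, and 0.11 without KO NPC 3. Their summed level was 2950 to 3330 CPM outside KO NPC 3 and 1908 CPM in it. *Ctcf*, which binds the *Pcdha* promoters and enhancers, had 113 to 132 CPM outside KO NPC 3 and 70.4 CPM in it. *Rad21*, *Smc1a* and *Smc3*, which encode core subunits of cohesin, were at 192, 67.6 and 69.4 CPM in KO NPC 3. These levels were 0.36, 0.36 and 0.63 times the mean of the other 5 libraries. All 4 were thus lowest in the library with the highest *Pcdhb* levels, and the link was not tested.

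The non-clustered protocadherins, which lie outside the clusters and have promoters of their own, also had mostly positive fold changes. Of 12 listed genes 11 were tested, 0 passed the test, and 10 leaned up and 1 down in KO. Their median log2 fold change was 0.29, or 0.050 once KO NPC 3 was left out. KO NPC 3 was the highest library for 8 of the 11, and for 34.9% of all genes tested. Its median ratio to the mean of the other 5 libraries was 1.44. The summed level of the list was 657 to 1004 CPM outside KO NPC 3 and 1155 CPM in it. *Pcdh11x* had the smallest unadjusted p, 0.0269 by edgeR's quasi-likelihood test (adjusted p = 0.983), and its log2 fold change of 0.59 (standard error 0.21) became 0.54 without KO NPC 3. Its level was 85.5, 97.1 and 101 CPM in KO and 65.7, 75.1 and 47.8 CPM in WT libraries, and its groups did not overlap, as for 2.74% of all genes tested. *Pcdh10*, the most abundant of the list, had a KO mean of 418 ± 153 CPM and a WT mean of 371 ± 59.7 CPM (SD, n = 3 each). The log2 fold changes of the others tested were 0.13 for *Pcdh1*, -0.19 for *Pcdh7*, 0.80 for *Pcdh8*, 0.21 for *Pcdh9*, 0.71 for *Pcdh15*, 0.29 for *Pcdh17*, 0.21 for *Pcdh18*, 0.51 for *Pcdh19* and 0.62 for *Pcdh20*. Without KO NPC 3 these were, in the same order, 0.22, -0.08, 0.46, 0.04, 0.46, -0.01, -0.0012, 0.05 and 0.83.

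The proteins that bind, cleave or relay protocadherins were also listed. All 17 genes were tested, 0 passed the test, and 10 leaned up and 7 down in KO. Their median log2 fold change was 0.08, and 0.06 without KO NPC 3. *Ptk2*, the focal adhesion kinase that protocadherin tails inhibit, had a log2 fold change of -0.09. *Adam10*, the protease that sheds the extracellular part, had one of -0.24. Without KO NPC 3 the values of *Ptk2* and *Adam10* were 0.03 and -0.08. *Ptk2b*, a kinase related to *Ptk2*, had an adjusted p = 0.983 in edgeR's quasi-likelihood fit and a log2 fold change of -1.89 ± 0.72 (standard error), at low levels of at most 0.32 CPM in the KO libraries and at least 0.45 CPM in the WT libraries.

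Genes beside or between the clusters gave the level of the chromosomal neighborhood. All 13 were tested, 0 passed the test, and 2 leaned up and 11 down in KO. Their median log2 fold change was -0.07, and 0.006 without KO NPC 3. *Taf7*, which encodes a subunit of TFIID and lies between the *Pcdhb* and *Pcdhg* clusters, had 14.04, 15.91 and 11.98 CPM in KO and 10.84, 16.29 and 9.49 CPM in WT libraries, with overlapping groups. *Zmat2*, *Wdr55*, *Hars* and *Hars2*, on the *Pcdha* side, had log2 fold changes of -0.04, -0.26, -0.21 and -0.01. Without KO NPC 3 these were -0.49, 0.08, 0.03 and 0.006. The summed level of the 13 genes was 393 to 441 CPM outside KO NPC 3 and 349 CPM in it, and KO NPC 3 was the highest library for 2 of them, *Rell2* and *Fchsd1*. Inside the span of the merged *Pcdha* and *Pcdhg* locus 25 loci name no member, most of them at few counts. KO NPC 3 was the highest library for 16 of them, and for 34.9% of all genes tested. The 25 loci were not filtered and 4 of them have no gene name, so the shares are over unlike sets. One of the 16, *3222401L13Rik*, had 9.86 CPM in KO NPC 3 and 4.57 to 5.55 CPM elsewhere.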

How the data were processed

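Total RNA of 3 *Armc5* KO and 3 WT NPC cultures was depleted of rRNA by the authors and sequenced as directional, paired-end libraries. Per the labels, the build was GRCm38 and the tools were edgeR, Picard, STAR, StringTie and Trimmomatic, with no versions. How reads were assigned to loci is not stated there or in the methods. The deposited counts are whole numbers per assembled locus and library, neither scaled nor filtered. The deposited log2 CPM was only compared with the counts, with which it correlated at r = 1.00 once loci with low counts were left out. No result here uses the deposited log2 CPM scaled to *Rn7sk*. The deposited gene length, another value of the table, is the exonic length used for CPM per kb. The deposited means per genotype were not used.

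Counts were summed per reference gene (53060 genes), leaving out 6596 loci without a name, and low genes were removed by filterByExpr of edgeR (at least 10 counts, total at least 15). The 19073 genes left were scaled by TMM and tested by edgeR's quasi-likelihood test with Benjamini-Hochberg adjustment over all of them, with a threshold of 0.05, whereas the study used the likelihood ratio test on *Rn7sk*-scaled values. The planned results for the *Pcdha* locus and for the *Pcdhg* locus turned out to be the same row and are given as 1 result. The software was edgeR 4.0.16 and DESeq2 1.42.0 under R 4.3.3. The edgeR tests were also run on simulated counts with known changes, as a check of the code. No statement on the power of the tests in these data is drawn from that run. Windows of 100 bases were compared over GENCODE M21 transcripts. Totals per library were 52995791 to 85170379 counts. Floors cover counting error only, while the standard errors and SDs include the spread between libraries.

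Replicate numbers come from the sample titles. Deviations from the group mean correlated between same-numbered KO and WT libraries at 0.41, 0.17 and 0.19, all above 0.1, so the numbers were taken to pair the libraries. The study also describes its replicates as 3 pairs and its comparison as paired. The main fit left the pairing out, and it entered only in the alternatives with a block. Alternatives were *Rn7sk* scaling, total counts, no filter, the likelihood ratio test, DESeq2, the replicate number as a block, leaving out each library and, added after seeing the data, leaving out both libraries numbered 3. The members and gene lists were chosen with earlier results of these data known. Named genes were all members, *Armc5*, *Rn7sk*, the first 4 tested genes of each list and all tested non-clustered protocadherins, and the other genes named were chosen after their values were seen. One gene that the rule names is not reported here. Sequences are not shown here.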

Additional observations from a re-analysis of the deposited data

Results flagged for a closer look

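Inside the span of the merged *Pcdha* and *Pcdhg* locus the table holds 4 loci on the plus strand that name no gene and entered no comparison, and each was highest in KO NPC 3, above every WT library. The locus from 37297636 to 37300396, which starts 11 bases after the end of *Pcdhb2*, had 6.85 CPM in KO NPC 3 against a WT range of 2.19 to 3.56 CPM. The locus from 37460682 to 37464987, beyond *Pcdhb14*, had 9.09 CPM in KO NPC 3 against a WT range of 0.810 to 1.19 CPM. The locus from 37465251 to 37466840 had 3.43 CPM against a WT range of 0.146 to 0.571 CPM. The locus from 37666411 to 37666885, in the *Pcdhg* cluster, had 1.85 CPM against a WT range of 0.238 to 0.467 CPM. These differences were not tested. KO NPC 3 also had the largest share of all counts at loci without a gene name, 4.89% against 1.3% to 1.7% in the other libraries. How many of all unnamed loci were highest in KO NPC 3 was not counted, so the 4 loci cannot be called particular to this span.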

How the results depend on the processing

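None of the 18 tested clustered protocadherin loci, and none of the genes of the 4 lists, was called under any alternative, the block among them. Over all genes the count of calls, 0, became 4 with *Rn7sk* scaling, 5 without the filter, 17 by the likelihood ratio test, 35 by DESeq2 and 38 with the likelihood ratio test plus a replicate block, and stayed at 0 with total counts, with the block alone, without each library, and without both libraries numbered 3. The log2 fold change of the merged *Pcdha* and *Pcdhg* locus was -0.22 with *Rn7sk* scaling, 0.13 with the block, and between -0.053 and 0.21 with 1 library left out. The median of the *Pcdhb* loci was 0.48 with the replicate block, between -0.16 and 0.97 with 1 library left out, and -0.23 without both libraries numbered 3. With *Rn7sk* scaling *Pcdhb3* was at -0.045 and *Pcdhb4* at -0.12. With 1 library left out, the lowest values, below 0, coming without KO NPC 3, the log2 fold changes ranged from -0.19 to 0.57 for *Pcdhb2*, -0.41 to 0.42 for *Pcdhb3*, -0.28 to 0.28 for *Pcdhb4*, -0.51 to 0.59 for *Pcdhb6*, -0.16 to 0.96 for *Pcdhb7*, -0.32 to 1.47 for *Pcdhb9*, -0.20 to 1.01 for *Pcdhb10*, -0.23 to 0.90 for *Pcdhb11*, -0.41 to 0.93 for *Pcdhb12*, -0.15 to 1.79 for *Pcdhb13*, -0.0030 to 1.33 for *Pcdhb14* and -0.0034 to 1.35 for *Pcdhb15*. The cause was not tested. The tested *Pcdhb* loci had between 73 and 12304 counts per library.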
